A study of Mus musculus with 16 samples.

Results

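The genes described here are 44 genes of macrophages and other myeloid cells, with a few that all leukocytes use, read out by RNA sequencing in isolated glomeruli and in renal cortex of diabetic mice (HFD/STZ, that is high-fat feeding combined with streptozotocin) and of control mice. They were taken from a list of gene names, drawn up with earlier results of these data known, and all 44 were found among the 24722 genes of the glomerular table and the 34264 genes of the cortex table (19012 genes could be joined across both). By role, 6 are pan-leukocyte genes, 8 pan-myeloid genes, 4 Fc receptors, 8 genes of resident macrophages, 11 genes of recruited or activated macrophages, 5 genes of dendritic cells or costimulation and 2 neutrophil genes.

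The labels give 4 groups of 4 libraries, namely diabetic glomeruli, control glomeruli, diabetic cortex and control cortex. All came from wild-type (WT) mice of 24 weeks and carry the same batch label. No group separates the diet from streptozotocin, a toxin of insulin-producing beta cells, or from the diabetes itself, so these cannot be told apart. Whether the libraries of a group came from separate mice is not stated, and p-values therefore measure only how these samples scatter, which may be technical scatter.

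Macrophages are tissue phagocytes. Some settle in the kidney before birth and renew themselves under the growth factor receptor encoded by Csf1r, and others arise from blood monocytes that enter the tissue during inflammation. Resident kidney macrophages of the mouse are known for F4/80 (Adgre1) and for complement C1q, whereas genes such as Lyz2, Lgals3, Gpnmb and Arg1 are used as markers of recruited or activated states, and the granule proteins S100a8 and S100a9 mark neutrophils and inflammatory monocytes. In whole tissue or isolated glomeruli, fewer cells of a type and less RNA per cell cannot be told apart.

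Among the members, the 4 receptors for the Fc part of IgG form a natural group, because 3 of them pass activating signals through the adaptor Fcer1g and the fourth, Fcgr2b, inhibits. The transcripts of the activating receptors Fcgr1, Fcgr3 and Fcgr4 were called higher in both diabetic tissues, and Fcgr2b in neither, so the 250 bases before their starts are shown from RefSeq (GRCm38.p6), each on its gene's own strand from 5′ to 3′. Capitals mark the word GAGGAAG, the core bound by the myeloid factor PU.1 (encoded by Spi1), which appears here on the opposite strand as CTTCCTC.
Fcgr1, chr3:96293970-96294219, minus strand: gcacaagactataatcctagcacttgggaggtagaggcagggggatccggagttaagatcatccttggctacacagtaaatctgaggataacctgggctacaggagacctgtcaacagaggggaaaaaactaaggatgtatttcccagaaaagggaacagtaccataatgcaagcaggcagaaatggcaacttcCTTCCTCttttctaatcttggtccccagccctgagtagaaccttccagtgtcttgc
Fcgr3, chr1:171059395-171059644, minus strand: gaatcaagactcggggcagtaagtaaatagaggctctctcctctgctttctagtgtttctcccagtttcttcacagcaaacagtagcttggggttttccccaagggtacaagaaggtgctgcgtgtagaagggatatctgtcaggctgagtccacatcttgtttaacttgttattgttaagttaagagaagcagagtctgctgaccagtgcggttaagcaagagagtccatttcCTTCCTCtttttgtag
Fcgr4, chr1:171018676-171018925, plus strand: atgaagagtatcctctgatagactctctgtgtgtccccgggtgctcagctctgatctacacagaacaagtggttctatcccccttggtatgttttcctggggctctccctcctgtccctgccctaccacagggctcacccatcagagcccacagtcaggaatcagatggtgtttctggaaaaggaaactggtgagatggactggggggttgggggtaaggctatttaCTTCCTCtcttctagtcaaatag
Fcgr2b, chr1:170976072-170976321, minus strand: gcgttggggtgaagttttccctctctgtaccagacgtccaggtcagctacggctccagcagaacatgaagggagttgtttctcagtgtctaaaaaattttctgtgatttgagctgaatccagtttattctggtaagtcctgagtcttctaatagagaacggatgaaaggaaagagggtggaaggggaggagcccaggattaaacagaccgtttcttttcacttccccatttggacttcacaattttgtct
The word ended 49 bases before the start of Fcgr1, 9 bases before that of Fcgr3 and 16 bases before that of Fcgr4, and was not found in the window of Fcgr2b. At another listed start of Fcgr3 the distance was 0. The windows of Fcgr2b and Fcgr3 lie inside the genes as GENCODE places them, with ends at 170976547 and 171064935, so other starts upstream are not covered. RefSeq promoter windows were at hand for 30 of the 44 members (36 windows, since some genes have several starts). Searched on both strands, GAGGAAG was in 9 of these 36 windows (25%), against 10.6% of all 32851 windows of that length. These 9 include overlapping windows of Fcgr3 that hold the same site. By gene the word was in 8 of the 30 members. It was in 5 of the 18 of them called higher in cortex, a share near that of the 30, so it did not mark the called members. The AP-1 word TGANTCA was in 5 of the 36 (13.9%), against 6.75% of all, and the C/EBP word TTGCNNAA in 4 (11.1%), against 9.56% of all. A match is a description of the letters and not of binding.

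Total counts per library were 36339294 to 40696477 in diabetic glomeruli, 40001932 to 41876031 in control glomeruli, 60628981 to 72352656 in diabetic cortex and 57473100 to 69947387 in control cortex. Among glomerular libraries, diabetic 1 and 4 were nearly identical (chi-square per gene of 6.69, against at least 66.2 for other diabetic pairs), and so were control 3 and 4 (2.76, against at least 45.7), so each such pair was summed and counted as 1 sample. Glomerular values below are thus given for 3 diabetic samples (1 with 4, 2, 3) and 3 control samples (1, 2, 3 with 4), and cortex values for libraries 1 to 4 of each group. Levels are CPM, a gene's counts scaled to a library of 1e6 counts after TMM scaling. A gene was called when its p, from the quasi-likelihood test of edgeR and adjusted by Benjamini-Hochberg over all genes tested, was below 0.05. Diabetic glomerular samples 1 with 4 and 3 also carried tubule transcripts. Summed over 15 proximal tubule markers, the level was 1559, 120 and 738 CPM in the diabetic glomerular samples, against 101, 117 and 89.9 CPM in the control ones. Over 12 distal nephron and collecting duct markers it was 1859, 90.6 and 845 CPM, against 79.7, 58.9 and 62.7 CPM. The calls were 12 higher among 15 proximal markers tested and 8 higher among 10 distal ones. The 10 podocyte markers, summed, gave 4587, 4136 and 2340 CPM in diabetic glomeruli and 4851 to 6048 CPM in control glomeruli. The 10 endothelial markers gave 1377, 1148 and 690 CPM, against 967 to 1432 CPM. Diabetic sample 3 was thus the lowest for both lists. Diabetic glomerular sample 2 stood near the controls in both tubule lists. In cortex the proximal markers summed to 29159 to 37496 CPM in diabetic and 30038 to 44582 CPM in control libraries.

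Diabetic glomeruli differed from control glomeruli in only part of the set. Arginase 1, the IgG receptors Fcgr1, Fcgr4 and Fcgr3, the lectins Lgals3, Clec7a and Clec10a, and the leukocyte or macrophage genes Ptprc, Coro1a, Aif1 and Ly86 were called higher, whereas Gpnmb and Lyz2 were called lower. No resident macrophage gene and no neutrophil gene among the members was called. Of the 44 members, 36 passed the filter on low counts. Of these, 11 (30.6%) were called higher, against 19.4% of all 15238 genes tested, and 2 (5.56%) were called lower, against 18.2% of all. The members' median log2 fold change was 0.57, against 0.01 over all genes tested, and by role it was 2.19 for the Fc receptors, 0.16 for recruited or activated macrophage genes and -0.36 for resident genes. In 13 of the 36 every diabetic sample lay above every control sample, against 26.6% of all genes, and in 2 every one lay below, against 27.6%. Members tested are those with enough counts in either group, so these shares are descriptions of the set.

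**Figure D1:**
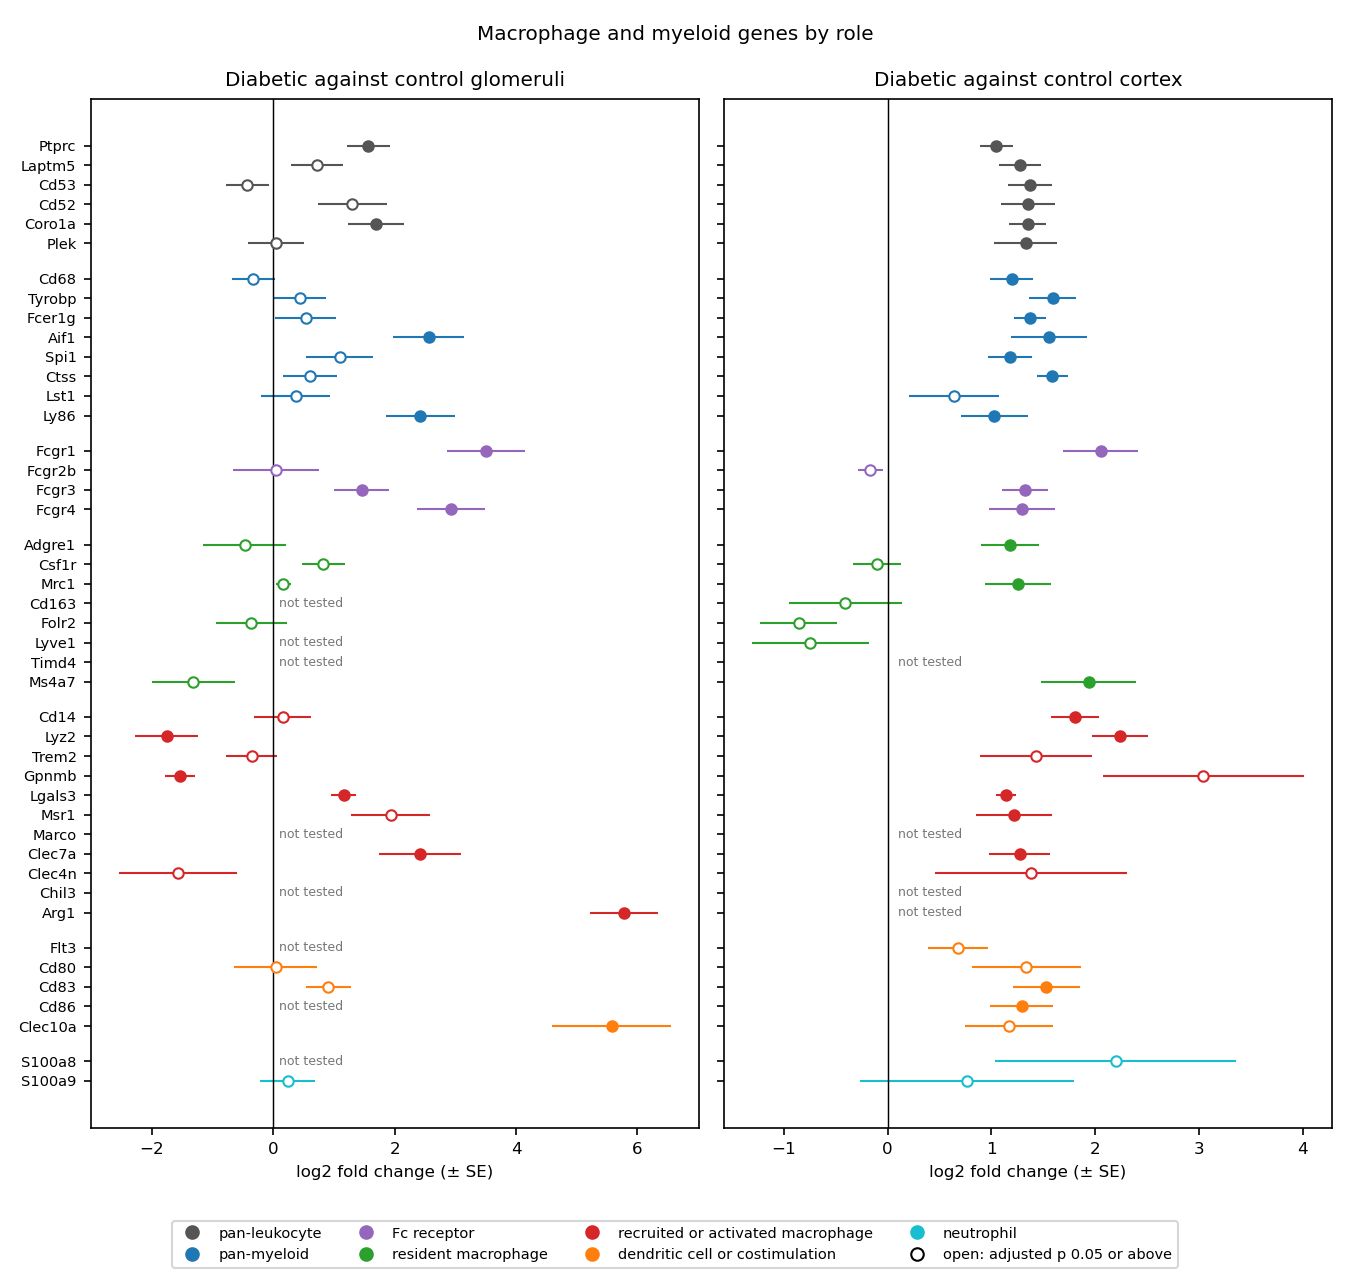
Log2 fold changes (diabetic over control, with SE) of the tested members in glomeruli and in cortex, ordered by role, with filled points for genes called by edgeR and open points for the others. In cortex 26 of 40 members were called higher and none lower, and in glomeruli 11 of 36 were called higher and 2 lower.

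Of the 6 pan-leukocyte genes, 2 were called in glomeruli. Ptprc, the CD45 phosphatase of all leukocytes, had 11.9, 7.26 and 17.3 CPM in diabetic glomeruli, against 3.84, 5.29 and 3.20 CPM in control glomeruli (log2 fold change 1.56 ± 0.35 (SE), adjusted p = 0.015). All diabetic samples lay above all control samples, and sample 3 was the highest. Coro1a, an actin-binding protein of leukocytes, had 11.3, 9.43 and 27.7 CPM in diabetic glomeruli, against 4.94, 6.64 and 3.50 CPM in control glomeruli (log2 fold change 1.69 ± 0.46 (SE), adjusted p = 0.0293), again without overlap. The other 4, namely Laptm5, Cd53, Cd52 and Plek, were not called, with log2 fold changes of -0.42 to 1.30.

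Among the 8 pan-myeloid genes, 2 were called. Aif1, the calcium-binding protein IBA1 used to stain macrophages, had 1.80, 1.42 and 4.96 CPM in diabetic glomeruli, against 0.376, 0.661 and 0.356 CPM in control glomeruli (log2 fold change 2.56 ± 0.58 (SE), adjusted p = 0.0155). Ly86, the MD-1 partner of a toll-like receptor relative, had 2.12, 2.03 and 6.31 CPM in diabetic glomeruli, against 0.779, 0.767 and 0.420 CPM in control glomeruli (log2 fold change 2.43 ± 0.56 (SE), adjusted p = 0.0165). Neither gene's groups overlapped. Cd68, a lysosomal glycoprotein of macrophages, had 7.91, 6.99 and 16.7 CPM in diabetic glomeruli, against 13.9, 15.1 and 10.6 CPM in control glomeruli, with overlapping groups and no call (log2 fold change -0.33 ± 0.35 (SE), adjusted p = 0.498). The adaptors Tyrobp and Fcer1g, the transcription factor Spi1, the protease Ctss and the small membrane protein Lst1 were not called, with log2 fold changes of 0.37 to 1.10.

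The activating IgG receptors stood apart from the controls in each diabetic sample. Fcgr1, the high-affinity receptor, had 3.35, 2.67 and 11.3 CPM in diabetic glomeruli, against 0.376, 0.556 and 0.572 CPM in control glomeruli (log2 fold change 3.51 ± 0.64 (SE), adjusted p = 0.00706). Fcgr4, an activating receptor of the mouse, had 2.57, 1.26 and 5.24 CPM in diabetic glomeruli, against 0.457, 0.423 and 0.318 CPM in control glomeruli (log2 fold change 2.93 ± 0.57 (SE), adjusted p = 0.00853). Sample 3 was the highest for both, and no diabetic value reached down to the control range. Fcgr3, the low-affinity activating receptor, had 7.31, 6.67 and 19.2 CPM in diabetic glomeruli, against 3.92, 5.00 and 3.18 CPM in control glomeruli (log2 fold change 1.45 ± 0.45 (SE), adjusted p = 0.0424). The inhibitory Fcgr2b had 3.75, 1.12 and 2.43 CPM in diabetic glomeruli, against 1.32, 4.84 and 1.00 CPM in control glomeruli, with a log2 fold change of 0.04 ± 0.70 (SE) and an adjusted p of 0.967. Its highest value was that of control sample 2, so its groups overlapped fully. The SE of Fcgr2b was wide, and its difference from the activating receptors was not tested. Fcgr2b, Fcgr3 and Fcgr4 are close relatives and neighbours on chromosome 1, and reads shared between them may have been split.

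Of the 8 resident macrophage genes, 5 could be tested and edgeR called none, with none at an unadjusted p below 0.05; DESeq2 called 1 higher, Csf1r. Adgre1, which encodes F4/80, had 4.91, 3.10 and 11.5 CPM in diabetic glomeruli, against 5.61, 17.4 and 4.04 CPM in control glomeruli (log2 fold change -0.47 ± 0.68 (SE), adjusted p = 0.62). Control sample 2 was the highest of all, and the groups overlapped with or without it. Without it the log2 fold change was 0.42. Csf1r, the receptor for the growth factors Csf1 and Il34, had 29.4, 23.6 and 42 CPM in diabetic glomeruli, against 15.5, 26.9 and 11.3 CPM in control glomeruli (log2 fold change 0.83 ± 0.35 (SE), adjusted p = 0.11). Only control sample 2 reached into the diabetic range, and without it the gene was called (1.24 on the log2 scale). Mrc1, the mannose receptor CD206, had 26.3, 25.1 and 25.7 CPM in diabetic glomeruli, against 25.4, 24.3 and 19.0 CPM in control glomeruli (log2 fold change 0.17 ± 0.12 (SE), adjusted p = 0.33), and the groups overlapped within a narrow range. Folr2, a folate receptor, and Ms4a7, a tetraspan membrane protein, were not called, at -0.36 and -1.32 on the log2 scale.

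The remaining 3 resident genes had too few counts for the test. Timd4, a receptor for phosphatidylserine on dying cells, had 31 counts over the diabetic samples and 0 over the control samples, at least 10.8-fold higher when the control group is set to 3 counts. Such floors, and the counting intervals given below, cover counting error only. Timd4 had 0.0979, 0.137 and 0.405 CPM in diabetic glomeruli, against 0, 0 and 0 CPM in control glomeruli. Lyve1, a hyaluronan receptor also of lymphatic vessels, had 0.122, 0.137 and 0.0715 CPM in diabetic glomeruli, against 0.349, 0.212 and 0.229 CPM in control glomeruli, so that every diabetic sample lay below every control sample at these low levels. Cd163, a scavenger receptor for haemoglobin, stayed at or below 0.0953 CPM in every sample.

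The recruited or activated macrophage genes went both ways. Arg1, the arginase of alternatively activated mouse macrophages, had 11.6, 13.9 and 34.4 CPM in diabetic glomeruli, against 0.349, 0.503 and 0.267 CPM in control glomeruli (log2 fold change 5.78 ± 0.56 (SE), adjusted p = 0.000957). Its lowest diabetic value was many times its highest control value. Lgals3, galectin-3, which macrophages and collecting duct cells make, had 106, 112 and 71.1 CPM in diabetic glomeruli, against 40.7, 51.7 and 36.9 CPM in control glomeruli (log2 fold change 1.16 ± 0.21 (SE), adjusted p = 0.00624). Unlike most members it was lowest in diabetic sample 3 and highest in sample 2. Clec7a, the beta-glucan receptor dectin-1, had 10.5, 11.6 and 30.5 CPM in diabetic glomeruli, against 1.83, 6.40 and 1.72 CPM in control glomeruli (log2 fold change 2.41 ± 0.67 (SE), adjusted p = 0.0306).

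The genes called lower belonged to the same role. Gpnmb, a glycoprotein of lysosome-rich macrophages, had 21.9, 25.2 and 38.0 CPM in diabetic glomeruli, against 76.7, 102 and 67.3 CPM in control glomeruli (log2 fold change -1.53 ± 0.25 (SE), adjusted p = 0.00451). Lyz2, lysozyme M, had 72.9, 67.7 and 187 CPM in diabetic glomeruli, against 307, 583 and 217 CPM in control glomeruli (log2 fold change -1.76 ± 0.52 (SE), adjusted p = 0.0379). For both genes all 3 diabetic samples lay below all 3 control samples, although diabetic sample 3 came within reach of control sample 3 with 4 for Lyz2. Lyz2 has a close copy, Lyz1, with which reads may be shared. Without diabetic sample 1 with 4 its log2 fold change was -1.50, and it was no longer called. It was likewise no longer called without diabetic sample 2 (-1.49), control sample 1 (-1.88) or control sample 2 (-1.27).

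Within this role, 4 tested genes were not called. Msr1, a scavenger receptor, had 8.42, 8.72 and 28.8 CPM in diabetic glomeruli, against 2.44, 7.06 and 2.57 CPM in control glomeruli, and its groups did not overlap although the adjusted p was 0.0555. Trem2, a lipid receptor that signals through Tyrobp, had 1.19, 1.21 and 2.98 CPM in diabetic glomeruli, against 2.74, 2.28 and 1.86 CPM in control glomeruli (log2 fold change -0.36 ± 0.43 (SE), adjusted p = 0.544). Cd14, the co-receptor for lipopolysaccharide, and Clec4n, the fungal receptor dectin-2, had log2 fold changes of 0.16 and -1.57. Control sample 2 was far above the other controls for both, with 16.2 CPM for Cd14 and 15.1 CPM for Clec4n.

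Counts of the scavenger receptor Marco came almost wholly from that sample. It had 0.0122, 0.0228 and 0 CPM in diabetic glomeruli, against 0.0269, 9.63 and 0.0127 CPM in control glomeruli, that is 2 counts over the diabetic samples and 366 over the control samples, and was not tested. Control sample 2 was the highest control for 30 of the 43 members detected in control glomeruli, and diabetic sample 3 the highest diabetic sample for 35 of 44. Chil3, a chitinase-like protein of activated mouse macrophages, stayed at or below 0.551 CPM and was not tested.

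Of the genes of dendritic cells and costimulation, 3 were tested and 1 was called. Clec10a, a galactose-binding lectin of macrophages and dendritic cells, had 0.526, 0.502 and 1.26 CPM in diabetic glomeruli, against 0, 0.0529 and 0 CPM in control glomeruli. These were 118 counts over the diabetic samples against 2 over the control samples, a ratio of 61.6 (95% counting interval 16.7 to 515), with an adjusted p of 0.00602. Cd83, a maturation marker, had no overlap but missed the threshold (log2 fold change 0.91 ± 0.37 (SE), adjusted p = 0.0945), and Cd80, a ligand of T-cell costimulation, had a log2 fold change of 0.04. Cd86, the partner of Cd80, was not tested, with 0.624, 0.114 and 1.00 CPM in diabetic glomeruli, against 0.0806, 0.0794 and 0.0890 CPM in control glomeruli. Flt3, a growth factor receptor of dendritic cell precursors, stayed at or below 0.110 CPM.

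The neutrophil genes among the members, S100a8 and S100a9, were scarce in glomeruli. S100a8 had 0.306, 0.183 and 0.191 CPM in diabetic glomeruli, against 0.0269, 0.397 and 0.0636 CPM in control glomeruli, or 41 counts in all diabetic and 21 in all control samples, and was too low for the test. S100a9, its partner in calprotectin, had 0.563, 0.571 and 0.238 CPM in diabetic glomeruli, against 0.430, 0.503 and 0.267 CPM in control glomeruli (log2 fold change 0.24 ± 0.45 (SE), adjusted p = 0.713; unadjusted p = 0.619), and DESeq2 did not call it either. The groups overlapped for both.

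**Figure D2:**
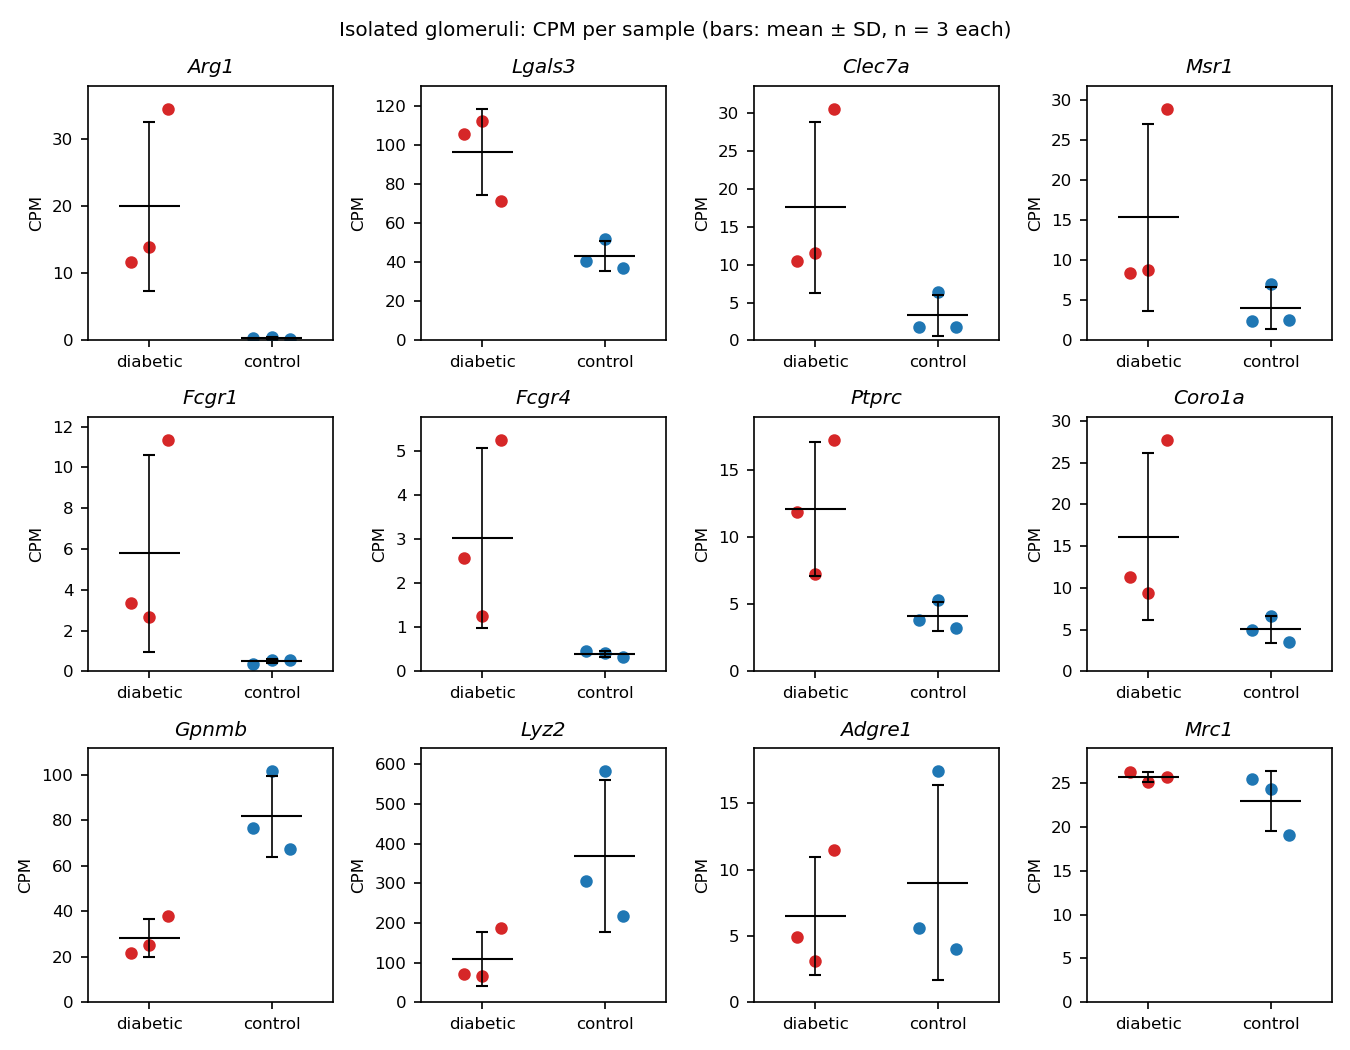
CPM of 12 members in each glomerular sample (points), diabetic left and control right, with mean and SD (n = 3 each). Arg1, Lgals3, Clec7a, Msr1, Fcgr1, Fcgr4, Ptprc and Coro1a lie higher in every diabetic sample, Gpnmb and Lyz2 lower in every one, and Adgre1 and Mrc1 overlap.

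Diabetic sample 2, with tubule marker sums near the controls, had 13.9 CPM of Arg1, 112 CPM of Lgals3, 25.2 CPM of Gpnmb and 2.67 CPM of Fcgr1, each outside the control range. With sample 2 as the single diabetic sample, the log2 fold changes were 5.27 for Arg1, 2.42 for Fcgr1, 1.41 for Lgals3, -1.67 for Gpnmb and -3.50 for Ms4a7. These genes were picked by that fit itself, which assumes that sample 2 varies like the others. The part of tubule or other tissue in the members' results was not tested. Without control sample 1, or without control sample 3 with 4, 5 members were called higher, the same 5 each time (Arg1, Clec10a, Fcgr1, Fcgr4 and Lgals3). Over all genes, 4283 of 15738 were called without control sample 1, 50.1% of them higher. Without control sample 3 with 4 it was 4111 of 15730, 50.5% of them higher. The members' share called higher was thus near that of all genes in both fits. Arg1, Lgals3 and Gpnmb were called under all 15 alternatives run in glomeruli.

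In the cortex the members were higher across most roles. All 6 pan-leukocyte genes, 7 of 8 pan-myeloid genes, 3 of 4 Fc receptors, 5 of 8 tested genes of recruited or activated macrophages, 3 of 7 tested resident genes and 2 of 5 genes of dendritic cells or costimulation were called higher, with none of the 2 neutrophil genes. Of the 44 members, 40 were tested and 26 (65.0%) were called higher, against 10.8% of all 19228 genes tested. edgeR and DESeq2 both called 0 lower, where edgeR called 9.29% of all genes, and 1 member was lower at an unadjusted p below 0.05 (Folr2). The members' median log2 fold change was 1.29, against -0.00 over all genes tested. By role it was 1.31 for the Fc receptors, 1.40 for recruited or activated macrophage genes and -0.10 for resident genes. In total 27 of the 40 had every diabetic library above every control library (13.5% of all genes). None had every library below (11.4% of all genes).

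Lymphocyte markers moved with this result in cortex. Summed over 16 such markers, the level was 45.3 to 110 CPM in diabetic cortex and 12.2 to 16.2 CPM in control cortex, and 8 of the 16 were called higher. Red blood cell markers summed to 361 to 604 CPM in diabetic cortex, against 759 to 1338 CPM in control cortex, with 6 of 6 tested called lower. The part of either in the members' values was not tested. In glomeruli the lymphocyte sums were 4.67 to 7.97 CPM in diabetic and 3.09 to 4.18 CPM in control samples, with 1 of 5 tested markers called higher.

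Pan-leukocyte genes rose to about the same degree. Ptprc had 17.9, 26.2, 28.1 and 19.2 CPM in diabetic cortex, against 12.9, 10.1, 9.57 and 11.6 CPM in control cortex (log2 fold change 1.05 ± 0.16 (SE), adjusted p = 0.00231). Coro1a had 11.9, 16.8, 21.5 and 15.5 CPM in diabetic cortex, against 6.94, 5.46, 6.13 and 7.28 CPM in control cortex (log2 fold change 1.35 ± 0.17 (SE), adjusted p = 0.00111). In both, libraries 2 and 3 were the highest diabetic ones, and no diabetic library reached the control range. Laptm5, a lysosomal membrane protein of blood cells, had 22.8, 36.3, 36.7 and 28.9 CPM in diabetic cortex, against 13.0, 9.83, 11.1 and 17.6 CPM in control cortex (log2 fold change 1.28 ± 0.21 (SE), adjusted p = 0.00354). Cd53, a tetraspanin of leukocytes, had 4.70, 6.35, 7.76 and 5.57 CPM in diabetic cortex, against 2.18, 2.11, 1.95 and 3.15 CPM in control cortex (log2 fold change 1.38 ± 0.21 (SE), adjusted p = 0.0022). Cd52, a small surface glycoprotein, and Plek, a substrate of protein kinase C, rose by 1.35 and 1.33 on the log2 scale.

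Of the pan-myeloid genes, Ctss and Fcer1g had the smallest adjusted p-values. Ctss, the lysosomal protease cathepsin S, had 24.5, 35.1, 34.9 and 24.4 CPM in diabetic cortex, against 10.2, 8.60, 9.30 and 11.4 CPM in control cortex (log2 fold change 1.59 ± 0.15 (SE), adjusted p = 0.000298). Fcer1g, the signalling chain shared by activating Fc receptors, had 6.47, 8.09, 8.80 and 7.45 CPM in diabetic cortex, against 3.12, 2.50, 2.77 and 3.49 CPM in control cortex (log2 fold change 1.37 ± 0.16 (SE), adjusted p = 0.000698). The control libraries kept within a narrow range for both, well below the lowest diabetic library. Tyrobp, the adaptor DAP12, had 3.60, 5.26, 6.03 and 3.40 CPM in diabetic cortex, against 1.51, 1.26, 1.60 and 1.70 CPM in control cortex (log2 fold change 1.59 ± 0.23 (SE), adjusted p = 0.00157). Cd68 had 4.62, 7.18, 8.05 and 6.96 CPM in diabetic cortex, against 3.63, 2.29, 3.03 and 2.74 CPM in control cortex (log2 fold change 1.19 ± 0.21 (SE), adjusted p = 0.00365). Spi1, which encodes PU.1, and Aif1 rose by 1.18 and 1.55. Ly86 was called with overlapping groups (adjusted p = 0.0475) and lost the call under 12 of 15 alternatives, among them the removal of any one library other than control library 4. Lst1 was not called (log2 fold change 0.64 ± 0.43 (SE), adjusted p = 0.343).

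In cortex, as in glomeruli, the 3 activating IgG receptors were called higher and Fcgr2b was not. Fcgr3 had 7.55, 8.69, 10.3 and 8.21 CPM in diabetic cortex, against 2.66, 2.78, 3.23 and 5.17 CPM in control cortex (log2 fold change 1.32 ± 0.22 (SE), adjusted p = 0.00304). Fcgr1 had 2.39, 3.50, 3.10 and 3.21 CPM in diabetic cortex, against 1.03, 0.278, 0.615 and 1.00 CPM in control cortex (log2 fold change 2.05 ± 0.36 (SE), adjusted p = 0.004), and Fcgr4 rose by 1.29 (adjusted p = 0.0174). Each of the 3 had its groups apart. Fcgr4 was no longer called without control library 1 (1.17), diabetic library 3 (1.19) or diabetic library 4 (1.23). Fcgr2b had 56.2, 54.4, 46.8 and 55.0 CPM in diabetic cortex, against 67.5, 65.1, 61.7 and 44.1 CPM in control cortex (log2 fold change -0.17 ± 0.12 (SE), adjusted p = 0.39). Control library 4 was below every other library, and without it Fcgr2b was called lower, at -0.29 on the log2 scale. Per transcript length Fcgr2b was also the most abundant of the 4 in cortex, at 8.58 ± 0.490 FPKM in diabetic and 9.36 ± 1.40 FPKM in control cortex (mean ± SD, n = 4), whereas Fcgr3 had 4.70 ± 0.793 FPKM in diabetic and 1.83 ± 0.705 FPKM in control cortex.

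Resident macrophage genes were divided. Adgre1 had 7.17, 12.2, 12.7 and 7.95 CPM in diabetic cortex, against 5.57, 3.13, 3.09 and 5.89 CPM in control cortex (log2 fold change 1.18 ± 0.28 (SE), adjusted p = 0.0156). Mrc1 had 5.72, 11.4, 10.1 and 5.26 CPM in diabetic cortex, against 3.79, 2.07, 2.99 and 4.78 CPM in control cortex (log2 fold change 1.25 ± 0.32 (SE), adjusted p = 0.0214). In each, diabetic libraries 2 and 3 were well above diabetic libraries 1 and 4, which still exceeded all controls. Without control library 3 (1.19), diabetic library 2 (1.05) or diabetic library 3 (1.13) Mrc1 was no longer called. Ms4a7 rose by 1.94 (adjusted p = 0.0163).

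Csf1r did not follow them. It had 64.1, 65.2, 62.9 and 44.9 CPM in diabetic cortex, against 54.7, 49.8, 52.3 and 97.4 CPM in control cortex (log2 fold change -0.10 ± 0.23 (SE), adjusted p = 0.807). Control library 4 was the highest of all 8 and diabetic library 4 the lowest, with the other 6 close together. Folr2, Lyve1 and Cd163 were not called and had negative log2 fold changes (-0.86, -0.75 and -0.41), with overlapping groups. Timd4 was not tested, since it was at 0 in 3 of the 4 libraries of each group.

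Recruited or activated macrophage genes held the smallest adjusted p of all members. Lgals3 had 38.2, 46.0, 48.9 and 44.3 CPM in diabetic cortex, against 22.0, 17, 20.2 and 21.3 CPM in control cortex (log2 fold change 1.14 ± 0.10 (SE), adjusted p = 0.000184). Lyz2 had 42.8, 76.8, 74.8 and 43.0 CPM in diabetic cortex, against 13.7, 9.29, 10.7 and 16.4 CPM in control cortex (log2 fold change 2.24 ± 0.27 (SE), adjusted p = 0.00155). Cd14 had 8.23, 11.9, 15.8 and 7.40 CPM in diabetic cortex, against 2.74, 3.18, 3.18 and 3.29 CPM in control cortex (log2 fold change 1.81 ± 0.23 (SE), adjusted p = 0.00108). No diabetic library of these genes came near the control range, and diabetic libraries 2 and 3 were the highest for each. Clec7a and Msr1 rose by 1.27 and 1.22, Msr1 at levels below 1 CPM and with the call lost on removal of any one library other than control library 4.

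Gpnmb, Trem2 and Clec4n were not called. Gpnmb had 0.921, 2.05, 2.05 and 1.04 CPM in diabetic cortex, against 0.343, 0, 0.381 and 0 CPM in control cortex, with groups apart but an adjusted p of 0.0571. Trem2 had 0.340, 1.29, 0.767 and 0.648 CPM in diabetic cortex, against 0.377, 0.148, 0.132 and 0.466 CPM in control cortex (log2 fold change 1.43 ± 0.54 (SE), adjusted p = 0.0902), and was called without control library 4 (1.79). The other 3 genes of this role were not tested in cortex. Arg1 stayed at or below 0.204 CPM in every library, Chil3 was at 0 in all control libraries and in diabetic libraries 1 and 3 (37 counts over the diabetic group, at least 11.9-fold higher with the control group set to 3 counts), and Marco was at 0 in 6 of 8 libraries.

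Cd83 and Cd86 were the called genes of dendritic cells and costimulation, with log2 fold changes of 1.53 and 1.29 and adjusted p-values of 0.0097 and 0.0152. Cd80, Clec10a and Flt3 had positive log2 fold changes between 0.68 and 1.34 without a call.

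S100a8 and S100a9 were near the limit of detection in cortex too. S100a8 had 0.227, 0.406, 0.438 and 0.178 CPM in diabetic cortex, against 0.274, 0, 0 and 0 CPM in control cortex (log2 fold change 2.20 ± 1.16 (SE), adjusted p = 0.219; unadjusted p = 0.0877), from 84 counts in the diabetic group and 16 in the control group. All 16 control counts came from control library 1, and without that library S100a8 was called. S100a9 had 0.198, 0.743, 0.986 and 0.599 CPM in diabetic cortex, against 1.08, 0.352, 0 and 0.0706 CPM in control cortex (log2 fold change 0.76 ± 1.03 (SE), adjusted p = 0.655; unadjusted p = 0.476), with control library 1 the highest of all 8 libraries. DESeq2 called neither.

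**Figure D3:**
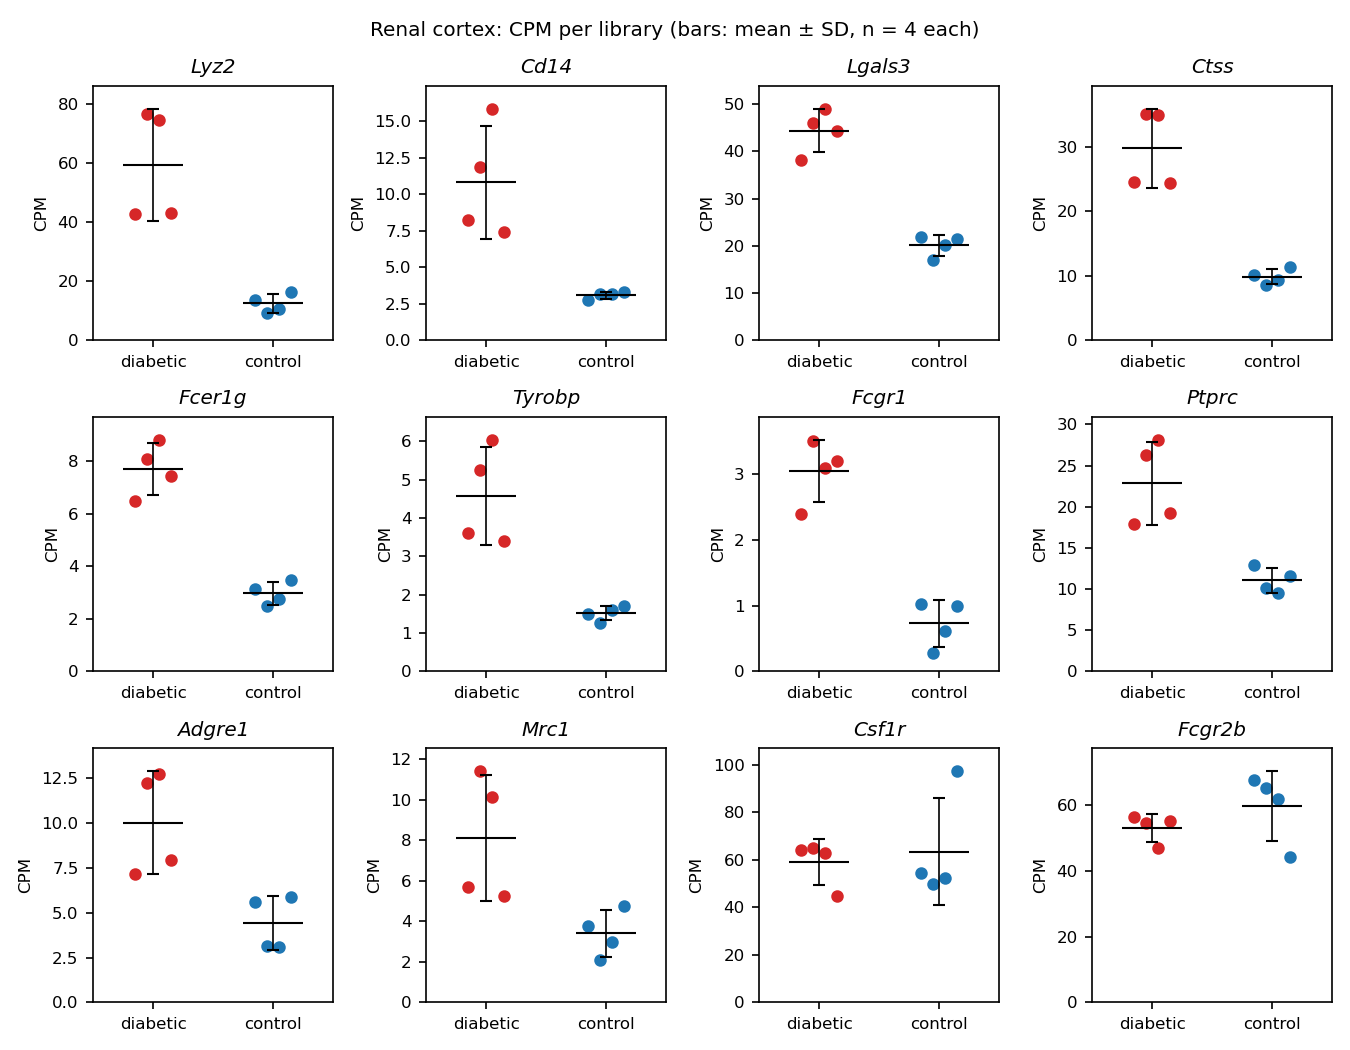
CPM of 12 members in each cortex library (points), diabetic left and control right, with mean and SD (n = 4 each). The first 10 genes lie higher in every diabetic library, while Csf1r and Fcgr2b overlap, with control library 4 the highest for Csf1r and the lowest for Fcgr2b.

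Of the 26 members called in cortex, 17 were called under all 15 alternatives run there, and these included Lgals3, Lyz2, Cd14, Ctss, Fcer1g, Tyrobp, Cd68, Fcgr1, Fcgr3 and 5 of the 6 pan-leukocyte genes. Diabetic library 3 was the highest diabetic library for 27 of 44 members and library 2 for 15, while control library 4 was the highest control for 22 of the 42 members detected in control cortex.

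The effect of diabetes was then compared between the tissues in 1 model of the 4 groups, as the log2 fold change in glomeruli minus that in cortex. Of 42 members tested, 2 were higher in this difference, against 18.8% of all 16483 genes, and 6 were lower, against 16.2%. Arg1 (difference 5.39 ± 1.37 (SE), adjusted p = 0.00845) and Clec10a (4.40 ± 1.12 (SE), adjusted p = 0.00853) had the larger increase in glomeruli. The 6 lower ones were Lyz2 (-3.98 ± 0.60 (SE), adjusted p = 0.00036), Gpnmb (-4.56 ± 0.82 (SE), adjusted p = 0.00112), Cd53 (-1.79 ± 0.42 (SE), adjusted p = 0.00507), Ms4a7 (-3.23 ± 0.86 (SE), adjusted p = 0.0109), Cd68 (-1.51 ± 0.41 (SE), adjusted p = 0.0119) and Cd14 (-1.63 ± 0.52 (SE), adjusted p = 0.0272).

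Lyz2 was called in opposite directions in the tissues, lower in diabetic glomeruli (-1.76) and higher in diabetic cortex (2.24). Gpnmb was called lower in glomeruli (-1.53) and missed the threshold in cortex (3.04). Cd53, Cd68 and Cd14 were called in cortex alone among the 2 fits, with log2 fold changes of -0.42, -0.33 and 0.16 in glomeruli. Lgals3 was close to the same in both, at 1.16 ± 0.21 in glomeruli and 1.14 ± 0.10 in cortex (SE), with a difference of 0.03 ± 0.22 (SE), adjusted p = 0.936.

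Several of these calls depended on 1 sample. Without diabetic glomerular sample 3, 12 members were called lower, adding Adgre1, Ctss, Fcer1g, Laptm5, Trem2 and Tyrobp. Over all genes, 5539 of 16745 were called in that fit, 51.9% of them higher. Without control cortex library 4, Arg1 was no longer called (3.98) and only Clec10a remained higher. There were 4 members higher without control glomerular sample 2 (adding Clec7a and Csf1r), and also 4 without diabetic glomerular sample 2 (adding Cd86 and Fcgr4). Cd14 was no longer called without control glomerular sample 2 (-0.92), diabetic glomerular sample 1 with 4 (-1.64), diabetic glomerular sample 2 (-1.60) or diabetic cortex library 3 (-1.39). Lyz2, Gpnmb, Cd53, Ms4a7, Cd68 and Clec10a were called under all 19 alternatives.

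**Figure D4:**
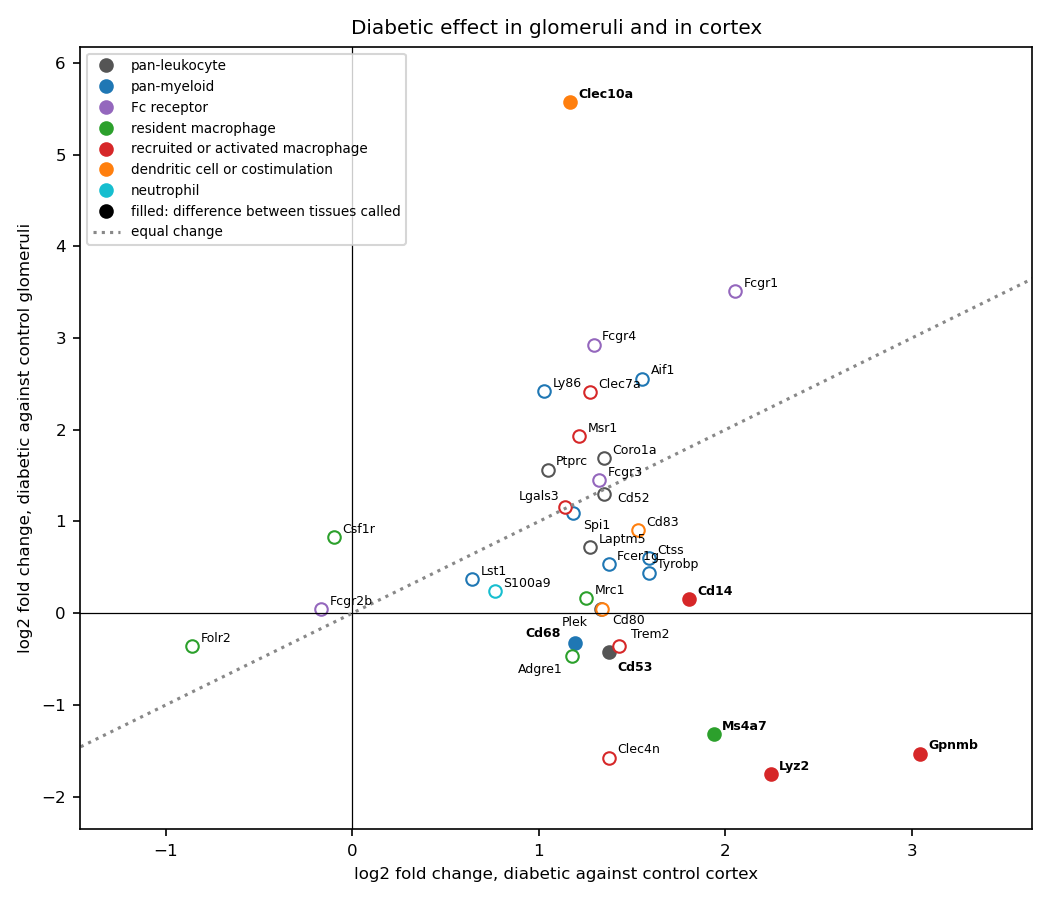
Log2 fold change (diabetic over control) of each member in cortex (x axis) and in glomeruli (y axis), for members tested in both, filled where the difference between tissues was called, with a dotted line of equal change. Lyz2, Gpnmb and Ms4a7 lie above 0 in cortex and below 0 in glomeruli, Fcgr1 and Fcgr4 above 0 in both, and Csf1r and Fcgr2b near 0 in cortex.

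Levels per transcript length are given by the deposited FPKM values. In diabetic glomeruli the order was led by Lyz2 at 109 ± 65.1 FPKM and Lgals3 at 73.3 ± 18.0 FPKM, followed by Ctss at 24.4 ± 14.0 and Fcer1g at 16.8 ± 10.1 (mean ± SD, n = 3). Lyz2 and Lgals3 lay within their joint spread, as did Ctss and Fcer1g. In control glomeruli Lyz2 stood at 327 ± 172 FPKM, ahead of Lgals3 at 28.7 ± 5.30 and Gpnmb at 20.1 ± 4.46 FPKM. In diabetic cortex Lyz2 led at 42.6 ± 14.9 FPKM, with Lgals3 at 22.4 ± 3.00 and Ctss at 20.6 ± 4.85 FPKM within 1 SD of each other (n = 4). In control cortex Csf1r at 10.2 ± 4.13, Lgals3 at 9.91 ± 1.42, Fcgr2b at 9.36 ± 1.40 and Lyz2 at 8.76 ± 2.58 FPKM did not differ beyond their spread. The glomerular table lists genes by symbol and the cortex table by Ensembl identifier, and levels are not compared across them.

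Further macrophage genes, outside the 44, were read out from lists that were also drawn up with earlier results known. Of all genes tested, 19.4% were called higher and 18.2% lower in glomeruli, and 10.8% higher and 9.29% lower in cortex, and the counts of these lists stand against those shares. Of 12 tested resident macrophage genes in glomeruli, 6 were called higher and 1 lower (median log2 fold change 1.53). This differed from the resident members, of which edgeR called none of 5 tested there (median -0.36). Up to 4 genes of a list are named per tissue, and C1qa, C1qb and C1qc are not among those named for glomeruli. Slc40a1, the iron exporter ferroportin, averaged 35.0 ± 2.54 CPM in diabetic glomeruli and 6.98 ± 0.442 CPM in control glomeruli (SD, n = 3 each; log2 fold change 2.33). Ccl24, an eosinophil attractant, averaged 6.55 ± 5.20 CPM in diabetic glomeruli and 0.00424 ± 0.00734 CPM in control glomeruli, and F13a1, the coagulation factor XIII subunit, rose by 2.15. Cbr2, a carbonyl reductase, fell to 1.09 CPM in diabetic glomeruli, against 18.5 CPM in control glomeruli. In cortex 4 of 11 were called higher and 2 lower (median 0.70). The complement genes C1qb, C1qc and C1qa rose by 1.72, 1.58 and 1.90, and the transcription factor Maf fell, at -0.79.

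Of the further monocyte and recruited macrophage genes, 6 of 18 tested (33.3%) were called higher and 3 (16.7%) lower in glomeruli, so that the share called lower was near that of all genes (18.2%). In cortex 11 of 20 were called higher and 1 lower. The median log2 fold changes were 0.52 in glomeruli and 0.68 in cortex. Plac8, a small cysteine-rich protein of monocytes and other cells, rose in both tissues (2.81 in glomeruli and 1.28 in cortex). Fabp5, a fatty acid binding protein, averaged 18.9 ± 1.97 CPM in diabetic glomeruli and 86.1 ± 5.99 CPM in control glomeruli, and the protease gene Ctsk also fell (-1.97), whereas the tetraspanin Cd9 rose there (2.00). In cortex the integrin chains Itgam and Itgax rose by 2.57 and 1.45 and the lysosomal protease Ctsd by 0.56. Summed over its 20 genes, this list stood at 14085 to 25203 CPM in diabetic glomeruli and 25363 to 37996 CPM in control glomeruli. The leukocyte gene Ptprc had only 3.20 to 5.29 CPM in those control samples. The part of other cells in these sums, and in the changes of single genes such as Cd9, Ctsd and Fabp5, was not tested. A change of macrophages can therefore not be read from them.

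Among further neutrophil genes, 11 of 19 in glomeruli and 12 of 19 in cortex were too low to be tested. The median log2 fold change of those tested was 2.12 in glomeruli and 1.09 in cortex. In glomeruli 3 of 8 tested were called higher, namely Padi4 (3.66), Mmp9 (4.29) and Hdc (2.02), genes that other cells use too. Mmp9, a gelatinase, averaged 95.4 ± 42.9 CPM in diabetic glomeruli and 5.02 ± 7.78 CPM in control glomeruli. Summed over the 18 list genes present, the level was 492, 562 and 374 CPM in diabetic glomeruli, against 2.82, 67.9 and 3.14 CPM in control ones. Mmp9 made up only part of that sum, and the rest is not broken down here. A gain of neutrophils can therefore not be read from it. The cortex sums, over 16 genes, were 16.8 to 30.4 CPM in diabetic and 8.47 to 12.3 CPM in control libraries. In cortex 2 of 7 were called higher, Lcn2 (3.36), which injured tubules also make, and the granulocyte growth factor receptor Csf3r (1.52).

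Of the further dendritic cell genes, 6 of 8 tested were called higher in glomeruli and 8 of 13 in cortex, with 1 lower in glomeruli and median log2 fold changes of 3.03 and 1.03. The class II chain Cd74 averaged 71.0 ± 39.6 CPM in diabetic glomeruli and 5.76 ± 2.38 CPM in control glomeruli, and 448 ± 90.0 CPM in diabetic cortex and 157 ± 41.0 CPM in control cortex. Ciita, the class II transactivator, and H2-Eb1 rose in glomeruli by 3.37 and 2.93, while Zbtb46, a dendritic and endothelial cell factor, fell (-0.79). In cortex H2-Ab1, H2-Aa and H2-Eb1 rose by 1.74, 1.47 and 1.58. Class II genes are close relatives, and their reads may be shared.

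Genes that carry signals from myeloid receptors were mostly higher in diabetic cortex, where 18 of 22 were called higher and none lower, with a median log2 fold change of 0.91. The integrin chain Itgb2, the oxidase subunit Ncf4 and the adaptor Hcls1 rose by 1.45, 1.67 and 0.88. In glomeruli the median was 0.89, and 4 of 22 (18.2%) were called higher, near the 19.4% of all genes tested, and 1 was called lower (4.55%, against 18.2%). Those called higher included the phospholipase Plcg2 (1.90) and the phosphatase Ptpn6 (2.34).

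The growth factors and attractants of myeloid cells differed between the tissues. In cortex 8 of 9 tested were called higher (median log2 fold change 1.53). Ccl2, the main monocyte attractant, averaged 4.05 ± 1.23 CPM in diabetic cortex and 0.257 ± 0.0861 CPM in control cortex (log2 fold change 3.98), and Cxcl1, a neutrophil attractant, averaged 26.4 ± 15.4 CPM in diabetic cortex and 0.628 ± 0.436 CPM in control cortex. Il34, a ligand of Csf1r, and the cytokine Mif rose by 1.53 and 0.65. In glomeruli 4 of 11 were called higher, including Csf3 (3.42), Mif (0.92) and Il34 (0.73), and 3 lower (median -1.08). Cx3cl1, the ligand of the macrophage receptor Cx3cr1, averaged 59.1 ± 11.8 CPM in diabetic glomeruli and 210 ± 63.0 CPM in control glomeruli and fell there. In the difference between tissues 6 of 11 of these genes were called lower in glomeruli than in cortex and none higher, against 16.2% and 18.8% of all genes tested.

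Summed over its 11 genes, the recruited or activated macrophage list stood at 244 to 407 CPM in diabetic glomeruli and 333 to 794 CPM in control glomeruli, and at 93.6 to 148 CPM in diabetic cortex and 31.6 to 43.5 CPM in control cortex. The resident list stood at 52.4 to 81.8 CPM in diabetic and 36.9 to 72.8 CPM in control glomeruli, and at 62.2 to 95.5 CPM in diabetic and 57.5 to 111 CPM in control cortex. The neutrophil pair summed to 0.429 to 0.869 CPM in diabetic and 0.331 to 0.899 CPM in control glomeruli, and to 0.425 to 1.42 CPM in diabetic and 0 to 1.35 CPM in control cortex. Of these sums, the recruited list in cortex was the only one whose groups did not overlap. Lyz2 gives much of the recruited sum, and Csf1r and Mrc1 much of the resident sum.

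**Figure D5:**
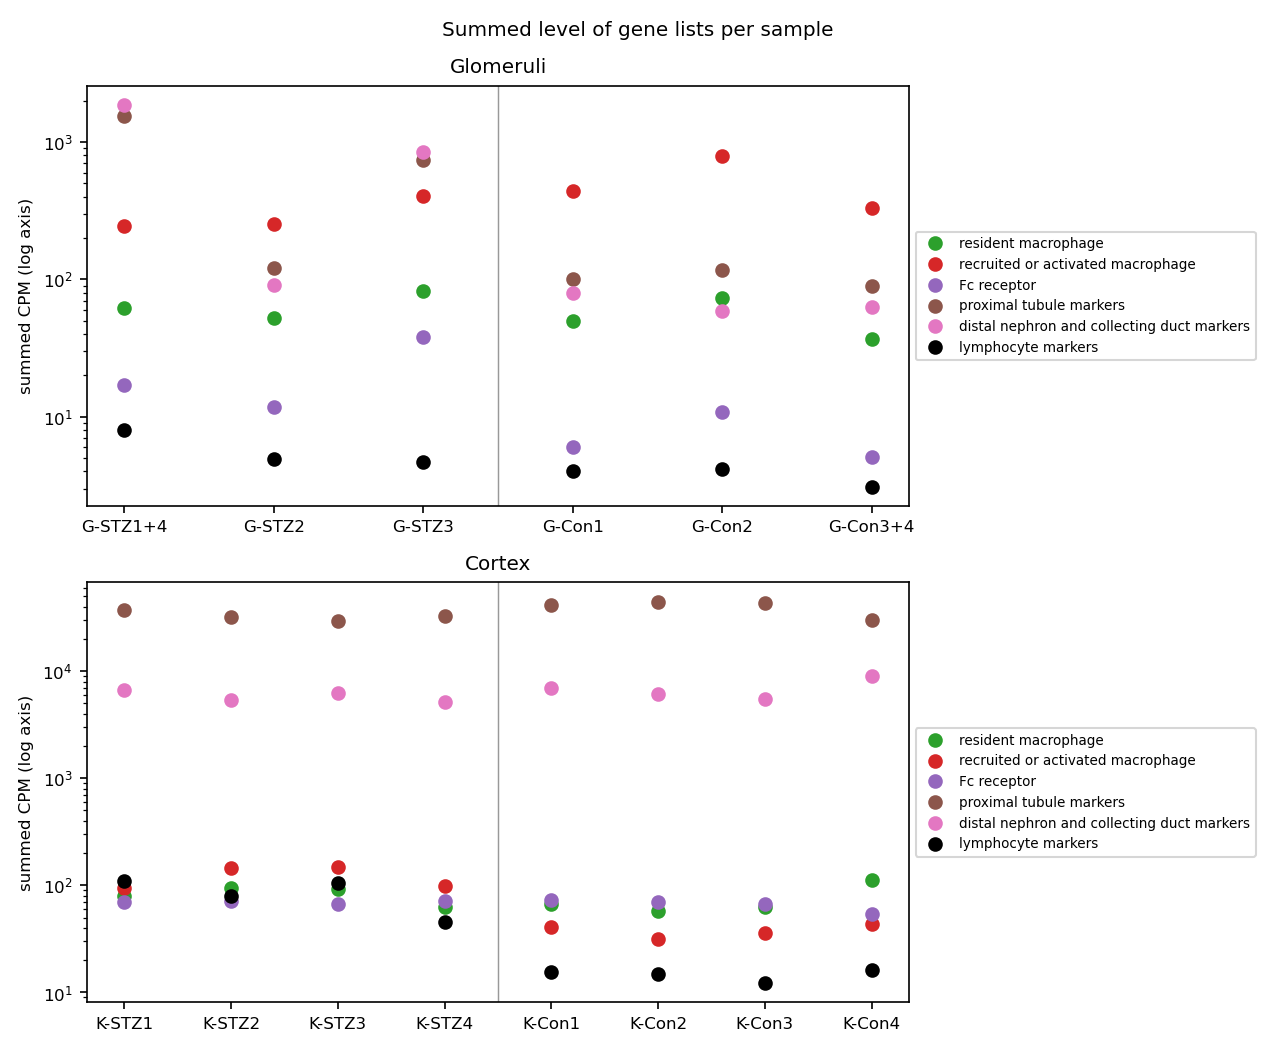
Summed CPM (log axis) of 3 member lists and 3 marker lists in each sample, diabetic left and control right of the grey line, for glomeruli (top) and cortex (bottom). In glomeruli both tubule lists are high in diabetic samples 1 with 4 and 3 and near the controls in sample 2, and in cortex the recruited list and the lymphocyte markers lie higher in every diabetic library.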

How the data were processed

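Per the labels' protocols, RNA was purified with a Qiagen RNeasy kit, and 1.3 µg of it per sample entered library preparation with a SMARTER mRNA-Seq kit. Genome builds GRCm38 and mm10 are named in the submitters' processing notes, and for the aligner, the counter, the annotation and any use of strand, nothing is given in the sources used here. The authors deposited whole-number counts per gene symbol for glomeruli and per Ensembl identifier for cortex, and FPKM values for both. In cortex 15 counts above 0 had an FPKM of 0. Whether the cortex counts are estimated counts made whole is not stated, and these values do not settle it.

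Identifiers were paired with symbols through a supplied table of gene names, with RefSeq synonyms (GRCm38.p6). In glomeruli 19765 symbols matched as written, 291 through synonyms and 4666 not at all, and 31953 cortex identifiers matched. Each tissue was fitted alone with edgeR 4.0.16 (R 4.3.3: filterByExpr, TMM, glmQLFit with robust dispersion, glmQLFTest), and the difference between tissues over the joined genes with all 4 groups in 1 model, with Benjamini-Hochberg adjustment over all genes tested and a threshold of 0.05. Near-identical glomerular libraries were summed. Alternatives were DESeq2 1.42.0, library totals without TMM, no filter on low counts, limma 3.58.1 on log2(FPKM + 1) or log2(FPKM + 0.1) with a minimum mean FPKM of 0.1 or none, separate glomerular libraries, a replicate block, and leaving out samples. The fits by each tool were tested on simulated data.

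The members and lists were chosen with earlier results of these data known. Values in every sample are given for called members (the 12 with the smallest adjusted p per tissue) and for S100a8, S100a9, Adgre1, Csf1r, Mrc1, Lyz2, Trem2, Cd68 and Ptprc, and up to 4 genes of each further list are named. Fcgr2b, Fcgr3, Msr1, Timd4, Lyve1, Marco and Cd86 in glomeruli and Fcgr1, Fcgr2b and Gpnmb in cortex were added after their values were seen, and so were the members of each role named without a call. The replicate numbers were checked as pairs between diabetic and control samples and did not pair them. Values of some genes outside the members are not reported here.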

Additional observations from a re-analysis of the deposited data

Results flagged for a closer look

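In cortex, where groups have 4 libraries, 1 library was set apart from the other 3 of its group in 9 of 86 checks by Dixon's rule. Chance flags about 1 of 20 groups by that rule, but only for independent values without ties. The flags of Timd4 and S100a8 were fixed by zeros in the other 3 libraries, and several others share control library 4. No excess over chance can therefore be read from the 9. Control library 4 had 97.4 CPM of Csf1r, against 49.8 to 54.7 CPM in the other control libraries, 2.39 CPM of Ly86, against 0.995 to 1.20 CPM, and 3.72 CPM of Fcgr4, against 1.41 to 1.77 CPM. The same library had 0 CPM of Clec4n, where the others had 0.257 to 0.296 CPM. Diabetic library 4 had 44.9 CPM of Csf1r, against 62.9 to 65.2 CPM in the other diabetic libraries, and diabetic library 2 had 1.23 CPM of Folr2, against 0.579 to 0.648 CPM. Timd4 was seen in 1 library of each group, with 0.0561 CPM in diabetic library 2 and 0.117 CPM in control library 3. S100a8 was seen in a single control library, library 1, at 0.274 CPM.

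For 8 members the diabetic effect differed between the tissues by the test of the difference itself (edgeR's quasi-likelihood test, adjusted over all joined genes). Of the 42 members tested, 4.76% were higher and 14.3% lower in the difference. Neither share was above that of all genes tested (18.8% and 16.2%). The log2 fold change in glomeruli minus that in cortex was 5.39 for Arg1, 4.40 for Clec10a, -4.56 for Gpnmb, -3.98 for Lyz2, -3.23 for Ms4a7, -1.79 for Cd53, -1.63 for Cd14 and -1.51 for Cd68.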

How the results depend on the processing

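Members called higher in glomeruli numbered 11 as reported and 13 with DESeq2. They numbered 15 with the 8 libraries kept separate and 6 with limma on log2(FPKM + 1) without a filter. Calls over all genes, in either direction, moved too. They were 6680 of 15238 with DESeq2, 7786 of 15182 with separate libraries and 5176 of 24722 with that limma fit. Leaving out 1 sample gave 5 to 13 members called higher, where 3911 to 5237 of all genes were called in either direction, against 5717 of 15238 as reported. With diabetic libraries 1, 3 and 4 left out a single diabetic sample remained, and fewer members were called higher. For members called lower in glomeruli (2), limma without a filter and edgeR without a filter each gave 1, and leaving out 1 sample gave 1 to 3. In cortex, leaving out 1 library gave 22 to 29 higher (26 as reported) and 0 to 1 lower (0 as reported). Over all genes 2528 to 4715 were called in either direction there, against 3856 as reported. For the difference between tissues, leaving out 1 sample, an alternative chosen after seeing the data, gave 1 to 4 higher (2 as reported) and 5 to 12 lower (6 as reported). Over all genes 4882 to 5819 were called in either direction in the difference, against 5773 as reported. In these cases the cause was not tested, beyond fewer samples. Called members kept the sign of their change under every alternative run. On library totals without TMM the median of all genes shifted to 0.20 in glomeruli and 0.19 in the difference, the share of higher calls over all genes was 72.5% in glomeruli (51.6% as reported), 63.5% in cortex (53.7%) and 69.0% in the difference (53.6%), and the members gave 13 higher and 2 lower, 25 and 0, and 2 and 6. Replicate numbers did not pair diabetic with control samples: the correlations of same-numbered deviations were -0.09 to 0.13 in glomeruli and -0.33 to 0.07 in cortex. With the replicate block and the 8 glomerular libraries kept separate, the members gave 12 higher and 2 lower in glomeruli, against 15 and 2 for separate libraries without the block, and 2 and 5 in the difference, against 3 and 9, where the block was also chosen after seeing the data. In cortex the block alone gave 19 higher and 0 lower. Over all genes the fits with the block called 6992 of 15182 in glomeruli, 5882 of 16127 in the difference and 2375 of 19228 in cortex. Without it, separate libraries gave 7786 in glomeruli and 6675 in the difference, and cortex gave 3856. Counts below about 1 CPM (S100a8, Timd4, Chil3, Arg1 in cortex) limit what can be said of these genes.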

Other observations

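The beta chain of the high-affinity IgE receptor, Ms4a2, a gene known from mast cells and basophils, averaged 6.23 ± 0.671 CPM in diabetic glomeruli and 53.2 ± 16.9 CPM in control glomeruli (SD, n = 3 each; log2 fold change -3.10, adjusted p = 0.000691 in edgeR's quasi-likelihood test). The mast cell protease genes were at or near 0 in the same samples, with a mean of 0.0598 CPM of Cma1 in diabetic glomeruli and 0.00882 CPM in control glomeruli. In cortex Ms4a2 averaged 0.329 ± 0.139 CPM in diabetic cortex and 0.444 ± 0.151 CPM in control cortex (SD, n = 4 each) and was not called.

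Cbr2, a carbonyl reductase known from some resident macrophages, was called lower in both tissues, with 1.09 ± 0.153 CPM in diabetic glomeruli and 18.5 ± 2.50 CPM in control glomeruli, and 1.30 ± 0.343 CPM in diabetic cortex and 3.47 ± 0.695 CPM in control cortex. Its log2 fold changes were -4.09 ± 0.19 in glomeruli and -1.41 ± 0.24 in cortex (SE).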
